A study of Mus musculus with 24 samples.

Results

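Chromatin accessibility in CD8 T cells given pyruvate was set against that in CD8 T cells given lactate, across every peak of the deposited ATAC-seq count table. In ATAC-seq the Tn5 transposase cuts and tags open DNA, so the number of reads in a peak follows how open that stretch of chromatin was. The comparison took 6 of the 24 libraries of the series, 3 from pyruvate-treated and 3 from lactate-treated cells, and all 75802 of 75802 peaks, since the filter on low counts removed 0. All cells were CD8 T cells of C57BL/6J mice, taken from spleen and lymph nodes and activated in culture for 3 days in medium with anti-CD28 antibody and interleukin-2. Cells of the first group received 20 mM sodium pyruvate from day 2 to day 3, and those of the second 20 mM sodium lactate over the same day. The other two groups, sodium lactate with Oxyrase (an enzyme preparation that removes oxygen from medium) and 20 mM NaCl as the salt control, had 3 libraries each and entered the model, where they help to estimate the spread between libraries. Nothing in the labels tells if replicate libraries stem from different mice or different culture wells, so every p-value below measures only the spread among these samples, which may be technical.

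Pyruvate and lactate are the oxidised and reduced forms of the same carbon skeleton, and lactate dehydrogenase converts each into the other while NADH and NAD+ exchange electrons. Both cross the plasma membrane through monocarboxylate transporters; pyruvate then enters mitochondria, where pyruvate dehydrogenase turns it into acetyl-CoA, the acetyl donor for histone acetylation as well as fuel. In activated T cells, open chromatin lies at gene starts, many of which are rich in CG dinucleotides and open in most cell types, and at enhancers within and between genes, which depend more on lineage and activation state.

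Promoter sequences are shown for 4 peaks at gene starts that were more open with pyruvate and for 3 that were less open, because peaks of these 2 kinds differed in base composition. They were chosen after their values were seen. Each line gives the 250 bases before the start of the gene in RefSeq's table for GRCm38.p6, 5′ to 3′ on the gene's own strand, in lower case with every CG dinucleotide in capitals.
Fubp3: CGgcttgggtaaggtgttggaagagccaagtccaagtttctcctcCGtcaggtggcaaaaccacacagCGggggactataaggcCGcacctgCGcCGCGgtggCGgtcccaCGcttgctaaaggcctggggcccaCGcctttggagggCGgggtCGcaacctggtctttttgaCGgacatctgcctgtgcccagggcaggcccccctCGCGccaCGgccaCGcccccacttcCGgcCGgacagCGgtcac
Sphk1: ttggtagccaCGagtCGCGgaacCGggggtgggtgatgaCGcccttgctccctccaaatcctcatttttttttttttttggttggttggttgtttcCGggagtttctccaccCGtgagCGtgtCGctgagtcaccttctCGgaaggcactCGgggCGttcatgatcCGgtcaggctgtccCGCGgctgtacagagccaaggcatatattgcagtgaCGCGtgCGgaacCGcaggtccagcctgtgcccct
Tnf: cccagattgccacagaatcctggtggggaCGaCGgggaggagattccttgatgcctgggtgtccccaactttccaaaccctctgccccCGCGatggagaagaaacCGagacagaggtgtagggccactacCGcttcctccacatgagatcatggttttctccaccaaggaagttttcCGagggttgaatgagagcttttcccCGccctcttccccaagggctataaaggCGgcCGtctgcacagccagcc
Brd2: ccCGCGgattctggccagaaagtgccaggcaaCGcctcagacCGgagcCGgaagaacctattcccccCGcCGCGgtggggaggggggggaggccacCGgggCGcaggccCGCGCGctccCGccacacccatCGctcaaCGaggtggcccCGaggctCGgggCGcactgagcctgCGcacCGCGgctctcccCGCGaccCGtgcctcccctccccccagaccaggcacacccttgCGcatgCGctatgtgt
Ctla4: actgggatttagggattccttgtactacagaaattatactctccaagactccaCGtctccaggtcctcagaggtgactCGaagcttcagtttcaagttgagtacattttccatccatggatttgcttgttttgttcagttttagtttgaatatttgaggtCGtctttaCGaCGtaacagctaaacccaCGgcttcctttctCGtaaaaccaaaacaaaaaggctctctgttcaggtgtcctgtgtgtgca
Cd101: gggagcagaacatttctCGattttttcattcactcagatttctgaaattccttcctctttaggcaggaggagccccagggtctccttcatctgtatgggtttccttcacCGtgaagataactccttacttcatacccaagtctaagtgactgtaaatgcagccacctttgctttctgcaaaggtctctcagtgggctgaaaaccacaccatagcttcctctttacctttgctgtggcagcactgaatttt
Itga2: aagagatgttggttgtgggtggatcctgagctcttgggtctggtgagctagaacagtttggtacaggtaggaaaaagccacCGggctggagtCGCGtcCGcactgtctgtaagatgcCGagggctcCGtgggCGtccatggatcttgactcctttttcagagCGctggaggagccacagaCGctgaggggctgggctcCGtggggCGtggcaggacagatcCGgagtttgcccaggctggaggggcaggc
The windows of Fubp3, Sphk1, Tnf and Brd2 stand at chr2:31572401-31572650 (plus strand), chr11:116531661-116531910 (plus), chr17:35202008-35202257 (minus as listed in the table) and chr17:34122608-34122857 (minus). Those of Ctla4, Cd101 and Itga2 stand at chr1:60908775-60909024 (plus), chr3:101029554-101029803 (minus) and chr13:114932101-114932350 (minus). The number of CG dinucleotides was 20, 19, 10 and 27 in the 4 windows of peaks that were more open with pyruvate, in the order given, against 7, 2 and 12 in the 3 windows of peaks that were less open. The counts of the 2 kinds overlap, since the Itga2 window holds more than the Tnf window.

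The same was measured over all peaks that lie at an annotated gene start with a 300-base window in the table (250 bases before the start and 50 after). The 2534 windows of start peaks called higher with pyruvate had a median GC content of 63.7% and a median of 25 CG dinucleotides. The 161 windows of start peaks called lower had 50.0% and 6, and the 7986 windows of start peaks not called had 60.7% and 19. For all 32851 windows in the table, open or not, the medians were 52.7% and 7. Short motifs were searched on both strands, and matches of different motifs could overlap. GGGCGG, the GC box bound by Sp and KLF factors, was present in 76.5% of the higher windows, 24.8% of the lower, 62.3% of those not called and 35.7% of all windows. The ETS motif CCGGAAGT was present in 9.31% of the higher windows, 1.24% of the lower, 6.69% of those not called and 3.89% of all. TGANTCA, the AP-1 motif, was present in 4.30% of the higher windows, 10.6% of the lower, 6.30% of those not called and 7.81% of all. TATAAA, the TATA box, was present in 4.85% of the higher windows, 16.8% of the lower, 7.05% of those not called and 13.6% of all. Of the other motifs, CCAAT stood in 41.5% of the higher windows and 32.9% of the lower (35.8% of those not called, 37.4% of all), the E-box CACGTG in 11.9% and 8.70% (9.87% and 7.15%), and the cyclic-AMP response element TGACGTCA in 3.35% and 0.621% (2.96% and 1.79%). A match describes the letters of a window and is not a measured binding site.

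The 3 pyruvate libraries held 37.1, 28.4 and 27.4 M read counts in peaks and the 3 lactate libraries 32.7, 25.3 and 30.0 M. Values are given per peak as CPM, the count scaled to the size of the library after TMM adjustment, and 3 counts in a library correspond to between 0.0809 and 0.119 CPM, a limit that covers counting error only. On principal components of these 6 libraries the first component, 38.0% of the variance, placed the pyruvate libraries at -36.0, -46.4 and -28.9 and the lactate libraries at 24.0, 44.6 and 42.8. Peaks at the genes that define the CD8 T lineage were open in both groups: the strongest Cd8a peak had a mean of 31.3 CPM with pyruvate and 30.8 CPM with lactate, and all 13 genes of that list had a peak at a gene end. Cd4 and the B cell genes Ms4a1, Pax5, Blk and Cd22 had 0 such peaks. The summed gene-end signal of the B cell list was 43.1 to 47.0 CPM in the pyruvate libraries and 40.1 to 42.1 CPM in the lactate libraries, most of it at Ebf1. The myeloid list summed to 81.1 to 92.2 CPM with pyruvate and 89.8 to 95.5 CPM with lactate, and the NK list to 4.87 to 6.98 CPM with pyruvate and 5.87 to 6.47 CPM with lactate. The part of these signals in the results was not tested. In bulk samples a smaller number of cells with an open site and a less open site in every cell cannot be told apart.

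With pyruvate, 5184 peaks were more open and 3620 were less open than with lactate at an adjusted p below 0.05 (edgeR's quasi-likelihood test with Benjamini-Hochberg adjustment), 8804 in all. These are 11.6% of the 75802 peaks, 6.84% higher and 4.78% lower. The direction of the whole set depended on the scaling: after TMM scaling 58.9% of the called peaks were higher with pyruvate, whereas scaling by total counts gave 4119 higher and 6084 lower, so that 40.4% were higher. The changes were small. The median called peak differed by 0.42 on the log2 scale, or 1.34-fold, and 79 peaks differed at least 2-fold, 48 of them higher and 31 lower. For 8569 of the 8804 called peaks the 3 pyruvate libraries did not overlap the 3 lactate libraries, a separation that 31.0% of all peaks showed. For 46925 peaks, 61.9%, the 95% confidence interval of the ratio lay within 1.5-fold in either direction, and 3219 of these were called. A further 23292 peaks, 30.7%, were neither called nor bounded within 1.5-fold at this depth and number of libraries. The number of calls depended on which library was left out: it was 3597 without lactate replicate 3, 4445 without pyruvate replicate 2, 4961 without lactate replicate 2 and 5284 without pyruvate replicate 1. It was 7186 without pyruvate replicate 3 and 8150 without lactate replicate 1. Each of these fits also has fewer libraries in the group, which by itself can lower the number of calls.

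**Figure D1:**
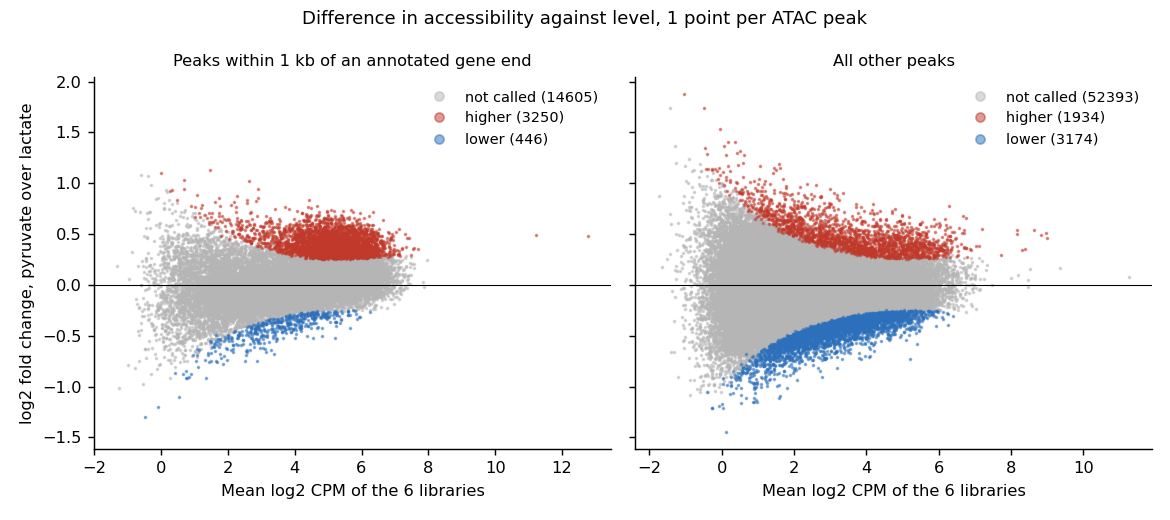
Each point is a peak, with gene-end peaks on the left panel and all others on the right, its mean log2 CPM in the 6 libraries on the horizontal axis and its log2 difference, pyruvate minus lactate, on the vertical axis. Called peaks are red where higher and blue where lower; gene-end peaks have 3250 and 446 such points and other peaks 1934 and 3174.

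Where a peak lay and how open it was went with its direction. Of the 18301 peaks within 1 kb of an annotated gene end (start or finish), 3250 were higher with pyruvate and 446 lower, 17.8% and 2.44%, and the median log2 difference of all of them was 0.08. Within genes but away from the ends the balance was the other way, with 1188 higher and 2077 lower of 36450 peaks (median -0.07). Between genes, 1 to 50 kb from a gene, 682 were higher and 953 lower of 18558 (median -0.05), and beyond 50 kb 64 were higher and 144 lower of 2493. Peaks at annotated starts carried most of the gene-end signal: of 11284 of them, 2435 were higher and 194 lower.

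The share of all counts that fell in gene-end peaks says the same without a call. It was 52.5, 53.1 and 51.0% in the pyruvate libraries and 50.2, 48.6 and 48.8% in the lactate libraries. All 3 pyruvate libraries lie above all 3 lactate libraries, and the difference of 3.01 percentage points had p = 0.1 in an exact two-sided permutation test, the smallest p that 3 against 3 can give. The gene-end direction held under every scaling tried but its margin moved: the higher and lower counts were 2792 and 933 with total counts, 2990 and 1082 with offsets fitted by loess to the level of the peak, and 1974 and 1363 when gene-end peaks received TMM factors of their own. That last scaling sets the gene-end peaks' own middle to 0, and 59.2% of the called gene-end peaks were then higher, against 87.9% before. The opposite balance of the other places was less stable. Intragenic peaks and peaks 1 to 50 kb from a gene had more higher than lower calls with separate factors (1704 and 1172, then 932 and 537). With offsets fitted to gene density, peaks 1 to 50 kb from a gene had 635 higher and 608 lower, and peaks beyond 50 kb had 94 and 55.

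The most open and the widest peaks held most of the higher calls, whereas the balance of the less open peaks turned with the scaling. In the most open quartile of peaks 3792 were higher and 1127 lower, whereas in the next quartile down 851 were higher and 1551 lower, in the third 363 and 704, and in the least open quartile 178 and 238. With loess offsets on level the top quartile had 3279 higher and 2792 lower, and the other quartiles turned to 1261 and 878, 606 and 421, and 268 and 192, in falling order of level. With total counts the top quartile had 3300 and 2392. The least open quartile also turned with DESeq2-type size factors (208 and 198), with separate factors (226 and 162) and with gene-density offsets (188 and 139). Within the top quartile under TMM scaling, gene-end peaks were 28.2% higher and 1.71% lower, but peaks elsewhere were 10.4% higher and 11.0% lower. The widest quartile of all peaks held 3053 higher and 1150 lower calls, against 2664 and 2416 with loess offsets and 2650 and 2247 with total counts. Under TMM scaling its gene-end peaks had 2461 higher and 191 lower, but its peaks elsewhere had 592 higher and 959 lower (6.79% and 11.0%).

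**Figure D2:**
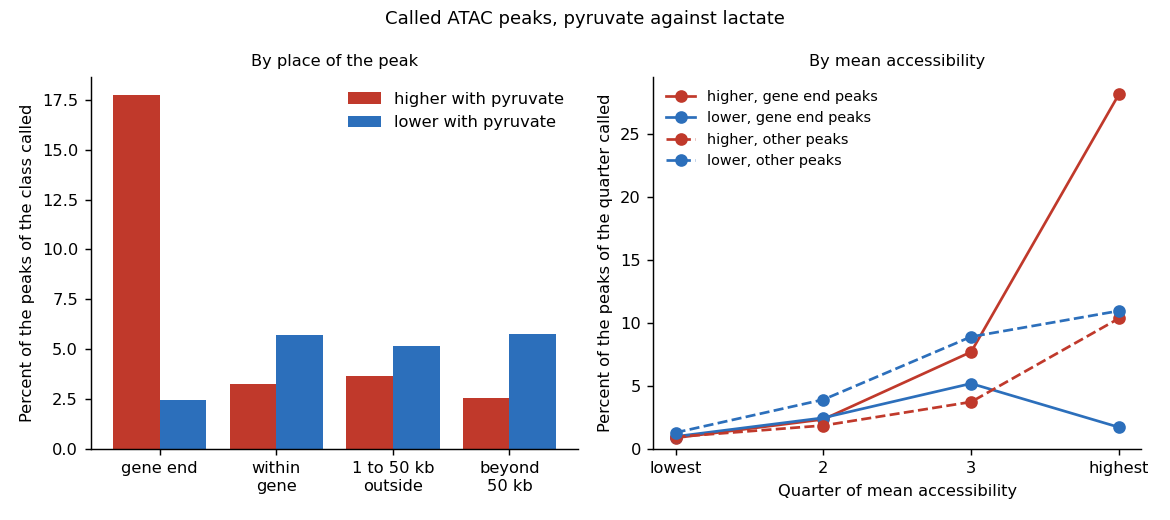
On the left, bars give the percentage of peaks called higher (red) and lower (blue) with pyruvate by place relative to genes. On the right, points give it by quartile of mean accessibility, with solid lines for gene-end peaks and dashed lines for other peaks. Gene-end peaks of the most open quartile reach 28.2% higher and 1.71% lower.

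Gene-rich regions were more open with pyruvate. Peaks were ranked by the number of annotated genes within 500 kb: in the densest quartile 3028 were higher and 329 lower (17.1% and 1.86%), in the sparsest 367 were higher and 1282 lower, and the quartiles between had 551 and 1118, then 1238 and 891 (982 and 1480 with total counts). At gene ends in the densest quartile 2145 peaks were higher and 56 lower. The densest quartile held 29.6 ± 0.0987% of all counts in the pyruvate libraries and 27.1 ± 0.291% in the lactate libraries (SD, n = 3 each), which do not overlap (exact permutation p = 0.1, the smallest possible). When offsets fitted to gene density were added, an alternative chosen after seeing the data, the sparsest quartile turned to 697 higher and 457 lower and the next to 840 and 479, and the densest had 1425 and 728. These offsets take out each library's mean level at every gene density, so the loss of the trend across these quartiles follows largely from the fit.

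Chromosomes differed in the balance of calls. Of the peaks on chromosome 11, one of the gene-rich mouse chromosomes, 823 were higher and 108 lower with pyruvate (16.3% and 2.14%). Chromosome 19 had 312 higher and 21 lower (15.1% and 1.02%), and chromosome 17, which carries the MHC and the Tnf cluster, had 420 and 126 (13.1% and 3.94%). The balance was the other way on chromosome 1, with 169 higher and 363 lower, on chromosome 3, with 118 and 290, and on chromosome X, with 37 and 111. With gene-density offsets chromosomes 11, 19 and 17 still had mostly higher calls (610 and 90, 234 and 8, 275 and 86), chromosomes 1 and 3 mostly lower ones (195 and 236, 83 and 177), and chromosome X became even (44 and 41).

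**Figure D3:**
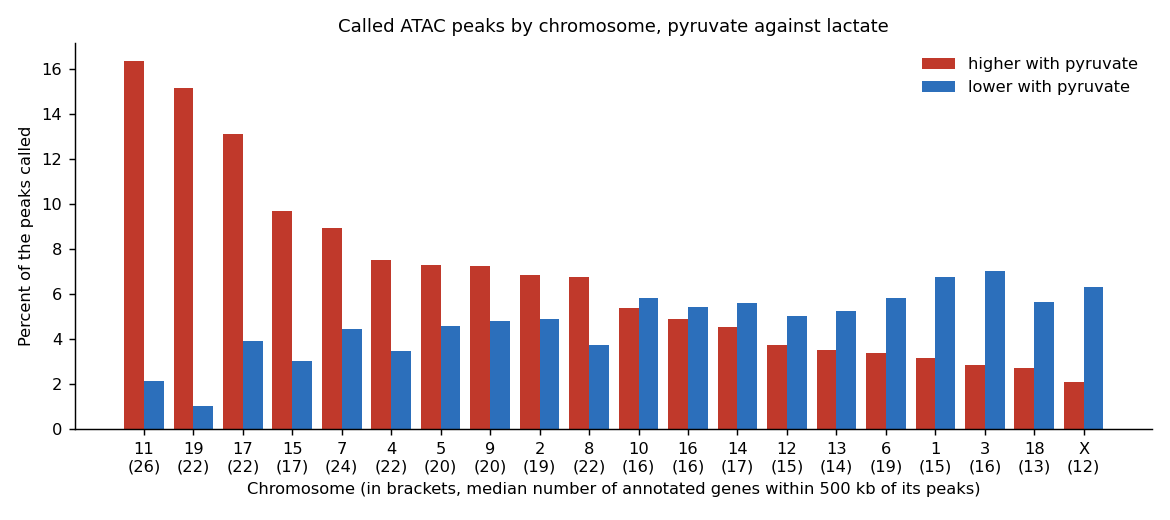
Bars give the percentage of each chromosome's peaks called higher (red) and lower (blue) with pyruvate, with the median number of annotated genes within 500 kb of its peaks in brackets. Chromosomes 11, 19 and 17 lead the higher calls at 16.3, 15.1 and 13.1%.

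Base composition moved together with place and direction. Among start peaks with a window, split into quartiles of window GC content, the share called higher was 13.3, 24.9, 26.9 and 30.2% with increasing GC, and the share called lower 4.17, 1.05, 0.479 and 0.233%. The libraries were made with 8 to 10 cycles of PCR. Fitted alone, these 10681 start peaks gave 2952 higher and 252 lower calls; with offsets fitted to GC in each library, an alternative added after seeing the data, they gave 1808 higher and 1371 lower, and the median log2 difference was -0.01 instead of 0.12. In both fits 2006 peaks were called in the same direction. The GC offsets take out each library's mean level over the start peaks at every GC content. The median near zero and the closer balance of calls therefore follow largely from the fit, and the part of GC itself was not tested. The start peaks of Tnf and Ctla4, described below, kept their direction and their call with GC offsets.

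The peaks of largest difference and the gene-end peaks of smallest p were named only if called and without overlap between groups. Their separation therefore follows from the choice. Most peaks named below for a gene list were its called peaks of smallest p. Since 8569 of all 8804 called peaks were without overlap, the separation of those list peaks follows largely from the choice as well. Sphk1 encodes the kinase that makes sphingosine 1-phosphate, a lipid signal in lymphocyte traffic. The peak over its start had 9.11, 8.56 and 8.72 CPM in the pyruvate libraries against 4.46, 4.37 and 4.20 CPM in the lactate libraries. Every pyruvate library was far above every lactate library, and the log2 difference of 1.02 ± 0.14 (SE; edgeR adjusted p = 2.74e-05) was the highest of the 127 named peaks. Its level in the NaCl libraries was 9.30, 9.32 and 6.78 CPM, near the pyruvate values, and the Sphk1 transcript was also higher with pyruvate than with lactate (log2 difference 1.90 ± 0.25, edgeR adjusted p = 4.23e-05). The start peak of Fubp3, a single-strand DNA and RNA binding protein of the FUSE family, had 28.2, 29.5 and 25 CPM against 17.1, 16.3 and 15.2 CPM. The groups lie far apart, and its difference of 0.77 ± 0.10 had the lowest adjusted p of all peaks, 1.80e-05 by edgeR, although its transcript was not called (0.10, adjusted p = 0.0658).

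Other peaks with large gains lay away from starts. An intragenic peak of Grap2, an adaptor of the T cell receptor signalling complex, had 8.71, 10.1 and 6.94 CPM with pyruvate against 4.67, 3.60 and 4.65 CPM with lactate (0.99 ± 0.16, edgeR adjusted p = 8.01e-05). A peak 1 to 50 kb from Ly9, a SLAM family receptor of T and B cells, had 5.32, 6.47 and 5.60 CPM against 3.07, 3.26 and 2.97 CPM. The lack of overlap at these sites was a condition for naming them. Gene starts with large gains included Ppard, a nuclear receptor for fatty acids (0.65 ± 0.09), Mrpl45, a mitochondrial ribosomal protein (0.84 ± 0.11), Sf3b2, a splicing factor (0.73 ± 0.10), and Nlk, a kinase that modulates Wnt and Notch signalling (0.74 ± 0.10), each with an edgeR adjusted p of 2.74e-05.

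The largest losses among named peaks were away from gene starts. A peak 1 to 50 kb from Nr1d2, a nuclear receptor of the circadian clock, had 6.05, 3.97 and 4.80 CPM with pyruvate against 9.65, 10.1 and 8.26 CPM with lactate (log2 difference -0.90 ± 0.14, edgeR adjusted p = 5.77e-05). Here too the lack of overlap was a condition for naming the peak. An intragenic peak of Dnajb14, a chaperone cofactor of the endoplasmic reticulum, differed by -0.93 ± 0.16, and a peak near Crot, which moves medium-chain fatty acids out of peroxisomes, by -0.82 ± 0.12. Of the 446 lower gene-end peaks, 194 were at annotated starts and 239 were not; the 6 of smallest p (at Tsn, Exoc6b, Rps15a, Eloc, Mto1 and Zfp286, between -0.75 and -0.46) were among those that were not. Start peaks that were lower, chosen after their values were seen, included Ctla4, the inhibitory receptor that competes with Cd28, with 20.9, 20.0 and 26.4 CPM against 31.2, 30.7 and 27.9 CPM. The 3 pyruvate libraries lie below the 3 lactate libraries, though pyruvate replicate 3 comes close to lactate replicate 3, and the difference was -0.42 ± 0.09 (edgeR adjusted p = 0.0024), or -0.37 with GC offsets. The Ctla4 transcript was lower too (-0.42, adjusted p = 3.15e-05), while another of the 5 Ctla4 peaks, 1 to 50 kb from the gene, was higher by 0.52 (adjusted p = 0.0399). Start peaks of Cd101, a surface protein of exhausted CD8 T cells, and Itga2, the collagen-binding integrin alpha chain, differed by -0.46 and -0.40.

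**Figure D4:**
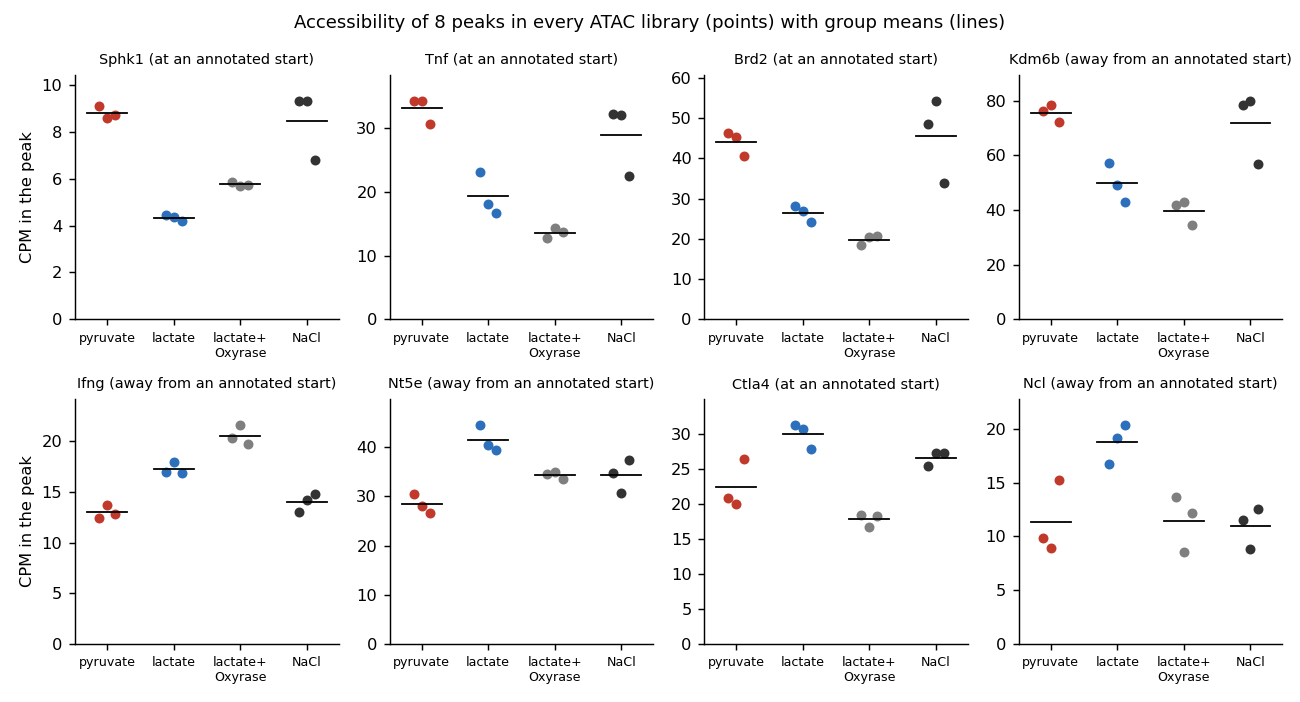
Each point is 1 library's CPM at 1 peak, with pyruvate first and lactate after it, then lactate with Oxyrase and NaCl, and the bar marks the group mean. Pyruvate lies above lactate without overlap at the Sphk1, Tnf, Brd2 and Kdm6b peaks and below it at the Ifng, Nt5e, Ctla4 and Ncl peaks.

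Genes of the T cell receptor response had more gains than losses with pyruvate. Of 199 peaks assigned to 25 such genes, 25 were higher and 9 lower (12.6% and 4.52%, against 6.84% and 4.78% of all peaks; median log2 difference -0.01, against -0.03), although scaling by total counts turned this to 17 and 18. The AP-1 subunit Junb had all 5 of its 5 peaks higher, 1 of 5 with gene-density offsets. The start peak of Fosb, another AP-1 subunit, had 29.5, 33.0 and 26.5 CPM with pyruvate against 21.3, 18.6 and 19.9 CPM with lactate, without overlap (0.57 ± 0.11, edgeR adjusted p = 0.000367). Tnfaip3, the ubiquitin-editing inhibitor of NF-kappa-B also called A20, had 7 of 17 peaks higher and 0 lower, and 6 or 7 were higher under each scaling tried.

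The effector and cytotoxic list held 9 higher and 6 lower of 100 peaks (9% and 6%, median -0.02), against 6.84% and 4.78% of all peaks. Which direction had more calls depended on the scaling (7 and 9 with total counts, 3 and 5 with density offsets, 8 and 8 with loess). Its members split by gene. The start peak of Tnf, the inflammatory cytokine, had 34.3, 34.3 and 30.7 CPM with pyruvate against 23.2, 18.1 and 16.7 CPM with lactate, a clear separation of 0.78 ± 0.11 (edgeR adjusted p = 2.74e-05) that was 0.64 with GC offsets and 0.55 with density offsets. The start peak of Csf2, which encodes the cytokine GM-CSF, had 27.7, 26.2 and 23.8 CPM against 18.7, 16.5 and 15.2 CPM (0.63 ± 0.10, adjusted p = 0.000109), and its transcript was higher as well (1.37 ± 0.11, adjusted p = 1.15e-07). Ifng, the signature cytokine of cytotoxic T cells, went the other way in chromatin. Its leading intragenic peak had 12.4, 13.7 and 12.8 CPM with pyruvate against 17.0, 17.9 and 16.9 CPM with lactate (-0.41 ± 0.10, adjusted p = 0.00336), and 4 of its 20 peaks were lower with 0 higher, 2 with density offsets. The Ifng transcript was higher with pyruvate, by 0.35 ± 0.06 (adjusted p = 0.000814). For the granzyme gene Gzmb, 1 of 11 peaks was higher (8.15, 7.31 and 11.5 CPM against 6.43, 6.78 and 6.65 CPM, 0.44 ± 0.15, adjusted p = 0.0416), but 11 of 27 alternative settings lost this call, with 0.23 without pyruvate replicate 3 and 0.38 with total counts for Gzmb. For Prf1, which encodes perforin, none of 5 peaks was called.

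Inhibitory receptors and exhaustion factors had 6 higher and 10 lower of 160 peaks (3.75% and 6.25%, median -0.10), with more lower than higher calls under each scaling tried. Over all peaks the shares were 6.84% and 4.78%. Of the 160, 135 lay away from gene ends, with 4 higher and 6 lower, and the 25 at gene ends had 2 and 4. The list's shares are near those of all peaks away from gene ends, 3.36% and 5.52%. A peak within Nt5e, the CD73 enzyme that makes adenosine, had 30.6, 28.0 and 26.7 CPM with pyruvate against 44.5, 40.5 and 39.5 CPM with lactate. No pyruvate library reached the lowest lactate library (-0.54 ± 0.09, edgeR adjusted p = 0.000139), while the Nt5e transcript was higher by 0.41. Of the 10 Nt5e peaks, 2 were lower and 0 higher. The start peak of Pdcd1, which encodes the PD-1 receptor, had 34.8, 33.8 and 33.0 CPM against 43.4, 39.0 and 42.1 CPM (-0.29 ± 0.09, adjusted p = 0.0228), a call that 7 of 27 alternative settings lost. Of the 13 Pdcd1 peaks no other was called. For Tox, a transcription factor of exhausted cells, 1 of 34 peaks was called, with a difference of -0.40 (adjusted p = 0.00791). A peak of Btla, an inhibitory receptor with 1 higher and 1 lower of 9 peaks, differed by -0.48. Vsir, which encodes the checkpoint protein VISTA, had 1 of 13 peaks called, higher by 0.46 ± 0.09. Havcr2, which encodes TIM-3, had none of its 7 peaks called, with 3.00, 3.16 and 3.85 CPM at the leading one against 3.32, 5.25 and 4.78 CPM, which overlap.

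Naive, memory and homing genes had 12 higher and 21 lower of 325 peaks (3.69% and 6.46%, median -0.09), and 11 of each when gene-end peaks had their own factors. Over all peaks the shares were 6.84% and 4.78%, and over all peaks away from gene ends 3.36% and 5.52%. Of the 325, 290 lay away from gene ends, with 4 higher and 20 lower, and the 35 at gene ends had 8 and 1. Lef1, a transcription factor of naive and memory T cells, had 4 of 24 peaks lower and 0 higher. Its leading peak had 15.6, 13.9 and 14.6 CPM with pyruvate against 19.0, 20.8 and 21.9 CPM with lactate (-0.48 ± 0.09, edgeR adjusted p = 0.000583). A peak within Foxp1, a factor that holds T cells in quiescence, differed by -0.57 ± 0.11, and 1 of its 92 peaks was higher and 4 lower (2 and 2 with density offsets). Tcf7, which encodes TCF-1 and marks stem-like T cells, had the opposite sign, with its start peak at 14.7, 14.8 and 14.0 CPM against 9.10, 10.1 and 8.49 CPM (0.65 ± 0.12, adjusted p = 0.000386) and a transcript difference of -0.24. Transcription factors of CD8 T cell fate had 26 higher and 16 lower of 281 peaks (17 and 22 with total counts). Their shares were 9.25% and 5.69%, against 6.84% and 4.78% of all peaks. Runx3, needed for cytotoxic lineage identity, had 2 of the 3 leading peaks, at 0.71 ± 0.12 and 0.73 ± 0.14. Tbx21, which encodes the effector factor T-bet, had 3 of 8 peaks higher, while none was called for Eomes (2 peaks) or Prdm1 (13 peaks).

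Methyl-group enzymes of chromatin had 22 higher and 7 lower of 133 peaks (16.5% and 5.26%, against 6.84% and 4.78% of all peaks; median 0.06, against -0.03), 11 and 4 with density offsets. The histone H3 lysine demethylase gene Kdm6b had 5 of 5 peaks higher, 1 of 5 with density offsets, and its leading peak had 76.2, 78.4 and 72.1 CPM with pyruvate against 57.3, 49.3 and 43.0 CPM with lactate (0.60 ± 0.11, edgeR adjusted p = 0.000273). Histone acetylation enzymes and readers had 14 higher and 4 lower of 123 peaks (11.4% and 3.25%), 11 and 10 with total counts. Of the 14, 10 were among the 20 gene-end peaks, and the 103 other peaks had 4 higher and 4 lower. Brd2, a bromodomain reader of acetylated histones, had 46.3, 45.4 and 40.7 CPM against 28.1, 27.0 and 24.1 CPM at its start (0.74 ± 0.11, adjusted p = 3.84e-05). The separation is wide; the Brd2 transcript differed by -0.10 (adjusted p = 0.049). Among remodellers, 9 higher and 4 lower of 110 peaks (8.18% and 3.64%, near the shares of all peaks; 7 and 9 with total counts), the start of Smarca4, the ATPase of the BAF complex, differed by 0.66 ± 0.11.

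Cholesterol and fatty acid synthesis genes had 19 higher and 5 lower of 92 peaks (20.7% and 5.43%, median 0.10), and higher calls outnumbered lower ones under every scaling tried. Over all peaks the shares were 6.84% and 4.78%. Of the 19, 14 were among the 30 gene-end peaks, and the 62 other peaks had 5 higher and 5 lower. Acss2, which makes acetyl-CoA from acetate, had 25.9, 26.9 and 23.8 CPM with pyruvate at a gene-end peak against 18.4, 15.7 and 15.1 CPM with lactate (0.64 ± 0.09, edgeR adjusted p = 4.83e-05). Scd1, the stearoyl-CoA desaturase, had 20.8, 20.5 and 22.1 CPM against 14.3, 14.3 and 14.9 CPM. The groups do not overlap at either gene, yet both transcripts were lower with pyruvate, with log2 differences of -0.54 (adjusted p = 0.00103) and -0.74 (adjusted p = 0.000165). Targets of the tumour suppressor p53 had 20 higher and 2 lower of 78 peaks (25.6% and 2.56%, median 0.10), again with more higher calls under every scaling. There chromatin and transcript moved together at 2 of the 3 named genes: Cdkn1a, the cell cycle inhibitor p21, had a peak at 43.9, 45.6 and 43.9 CPM against 33.3, 29.3 and 30.7 CPM (0.52 ± 0.09, adjusted p = 0.000278) and a transcript higher by 0.53, and Bbc3, the death protein PUMA, had 4 of 4 peaks higher and a transcript higher by 0.46. The start of Trp53, p53 itself, differed by 0.64 ± 0.10 with no called change of its transcript (0.03).

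Genes that handle pyruvate and lactate themselves had 8 higher and 4 lower of 92 peaks in their transport and conversion list (8 and 13 with total counts, 3 and 3 with separate factors). These shares, 8.70% and 4.35%, are near the 6.84% and 4.78% of all peaks. Slc16a3, a monocarboxylate exporter, had 2 of 3 peaks higher, the leading one at 26.2, 30.0 and 28.7 CPM with pyruvate against 20.2, 22.6 and 21.2 CPM with lactate (0.41 ± 0.09, edgeR adjusted p = 0.00197). The start of Pcx, the pyruvate carboxylase that feeds oxaloacetate to the mitochondria, differed by 0.47 ± 0.10. None of the peaks of Slc16a1 (4), Ldha (4) or Pdha1 (2) was called, and the leading Ldha peak had 15.2, 13.5 and 13.8 CPM against 15.5, 18.2 and 16.6 CPM. Glycolysis had 3 higher and 1 lower of 76 peaks (1 and 5 with loess, 3 and 4 with separate factors), and the TCA cycle 4 and 2 of 68, a balance that 4 of the alternative scalings turned. Respiratory chain genes had 8 and 2 of 51 (5 and 5 with total counts), led by the cytochrome oxidase subunit Cox5a at 0.60 ± 0.10.

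**Figure D5:**
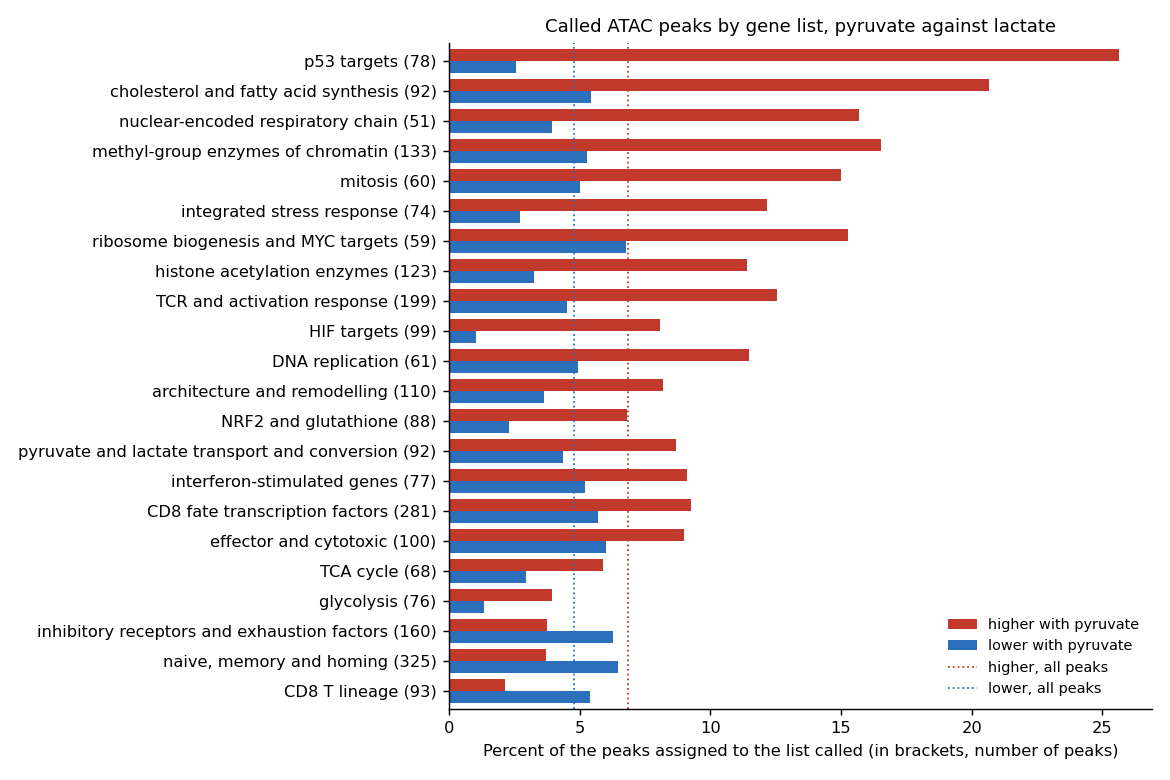
Bars give the percentage of each gene list's peaks called higher and lower with pyruvate, for lists with at least 50 peaks (number of peaks in brackets); dotted lines mark all peaks at 6.84% and 4.78%. The p53 list at 25.6% and the cholesterol and fatty acid list at 20.7% have the highest shares of higher calls.

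Among stress and proliferation lists, to be read against 6.84% higher and 4.78% lower of all peaks, HIF targets had 8 higher and 1 lower of 99 peaks (8.08% and 1.01%) and integrated stress response genes 9 and 2 of 74 (12.2% and 2.70%), both with more higher calls under every scaling tried. NRF2 and glutathione genes, the antioxidant response, had 6 and 2 of 88 (4 and 7 with total counts), and interferon-stimulated genes 7 and 4 of 77 (5 and 9 with total counts, 5 and 7 with loess). Atf4, the transcription factor of the stress response, had 97.3, 98.7 and 87.2 CPM with pyruvate at its start against 73.2, 66.6 and 64.7 CPM with lactate (0.47 ± 0.10, edgeR adjusted p = 0.00101). Ribosome biogenesis and MYC targets had 9 and 4 of 59 (15.3% and 6.78%, or 4 and 5 with separate factors). DNA replication had 7 and 3 of 61 (11.5% and 4.92%, or 3 and 4 with loess, 2 and 5 with separate factors) and mitosis 9 and 3 of 60. Except in the NRF2 and interferon lists, most higher calls lay at gene ends, where 17.8% of all peaks were higher and 2.44% lower. Gene-end peaks held 7 of the 9 for ribosome biogenesis (25 gene-end peaks), 7 of 7 for DNA replication (26) and 7 of 9 for mitosis (23). They also held 6 of 8 for HIF targets (25) and 7 of 9 for the integrated stress response (29). For NRF2 and glutathione genes they held 2 of 6 (26), and for interferon-stimulated genes 3 of 7 (32). A peak near Ncl, which encodes nucleolin, had 9.89, 8.89 and 15.2 CPM against 16.8, 19.2 and 20.4 CPM; the highest pyruvate library stayed just below the lowest lactate library (-0.73 ± 0.14, adjusted p = 0.000525). The lists that mark cell identity had 2 higher and 5 lower of 93 peaks for the CD8 T lineage, 2 and 1 of 10 for CD4 T cells, 3 and 1 of 24 for B cells, 0 and 1 of 30 for myeloid cells and 0 and 3 of 18 for NK cells.

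The NaCl and Oxyrase libraries place these peaks against the other conditions. All these comparisons share libraries, and the peaks were chosen on pyruvate against lactate, so the values are a description with no test. For the 5184 higher peaks the median log2 difference was 0.41 for pyruvate minus lactate, 0.04 for pyruvate minus NaCl and -0.37 for lactate minus NaCl. For the 3620 lower peaks the same medians were -0.43, -0.17 and 0.27. Lactate with Oxyrase minus lactate was -0.19 for the higher peaks and -0.16 for the lower ones. Sites more open with pyruvate than with lactate were thus near the NaCl level in pyruvate-treated cells and below it in lactate-treated cells at the median. The Tnf start shows this: 34.3, 34.3 and 30.7 CPM with pyruvate and 23.2, 18.1 and 16.7 CPM with lactate stood beside 12.8, 14.4 and 13.7 CPM with lactate and Oxyrase and 32.2, 32.2 and 22.5 CPM with NaCl. NaCl replicate 3 lay below the other two NaCl libraries at this peak.

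Transcripts gave a separate readout of the same contrast, from 3 RNA-seq libraries with pyruvate and 3 with lactate. Of 14749 transcripts tested, 3534 were called, 24.0%, with 1922 higher (13.0%) and 1612 lower (10.9%). Among the 2770 tested genes with a higher gene-end peak, 328 transcripts were higher and 453 lower, 11.8% and 16.4%. Among the 184 with a lower gene-end peak, 29 were higher and 24 lower. Among the 7061 whose gene-end peaks were not called, 1181 were higher and 784 lower, 16.7% and 11.1%. Genes with a more open end thus had no larger share of higher transcripts than all genes. Across 7565 genes the log2 difference of the strongest start peak and that of the transcript had Pearson's r = -0.11 and Spearman's rho = -0.11, given as a description because genes of the same libraries are not independent. Of 619 genes called in both, 245 were higher in both and 4 lower in both, 360 had a higher peak with a lower transcript, and 10 had the reverse.

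Several genes with large transcript differences had no called peak. Havcr2 transcripts averaged 18.8 ± 3.53 CPM with pyruvate and 1.47 ± 0.317 CPM with lactate (SD, n = 3 each; log2 difference 3.68 ± 0.19, edgeR adjusted p = 1.58e-09). Srxn1, the sulfiredoxin that repairs oxidised peroxiredoxins, averaged 23.6 ± 4.43 CPM and 3.52 ± 0.436 CPM, while 0 of its 2 peaks were called, the leading one at 10.5, 10.6 and 9.88 CPM with pyruvate against 12.2, 11.4 and 13.8 CPM with lactate. Nqo1, a quinone reductase of the same antioxidant programme, had a transcript difference of 2.42 ± 0.25 and 0 of 3 peaks called. Prf1 and Il2 had transcript differences of 0.87 ± 0.07 and 1.08 ± 0.14, and the 95% confidence interval of the leading Il2 peak, -0.25 to 0.14 in log2, lay within 1.5-fold. Nrp1, a co-receptor for semaphorins chosen after its values were seen, had 9 of 30 peaks lower (3 with gene-density offsets) and a transcript that was higher by 0.89 (adjusted p = 3.17e-08).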

How the data were processed

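The deposited ATAC-seq table holds raw read counts in 75802 peaks, 1 peak set for all libraries; per the file headers the authors had removed duplicates and mitochondrial reads, and the submitters' processing notes name Trimmomatic, BWA, Picard, MACS2, bedtools and mm10. The deposited RNA-seq table holds estimated counts (RSEM 1.2.12, Bowtie2 2.2.0, per the submitters' processing notes), described by the authors as adjusted; the kind of adjustment is not given in the sources used here, an adjustment can narrow the spread between replicates, and the values were rounded to whole numbers before testing. The members and gene lists were chosen with earlier results of these data known.

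Peaks were tested with edgeR 4.0.16 (R 4.3.3): filterByExpr, TMM factors, quasi-likelihood fit over 12 ATAC-seq libraries in 4 groups (8 residual degrees of freedom), the contrast pyruvate minus lactate, Benjamini-Hochberg adjustment over all peaks, threshold 0.05. The coefficient of biological variation was 9.70%. Transcripts were fitted the same way. The fit was tested on simulated data. Peaks were assigned to the RefSeq gene of GRCm38.p6 (the primary assembly of mm10) that contains them or is nearest, with a gene end taken as 1 kb around either annotated end. Standard errors are on the log2 scale. Named peaks are the 10 highest and 10 lowest log2 differences among called peaks that do not overlap between groups and average 2 or more in log2 CPM, the 6 gene-end peaks of smallest p in each direction, up to 3 called peaks of smallest p per gene list, and the leading peak of 25 chosen genes; the other peaks named are said to have been chosen after their values were seen. Junb, Kdm6b, Tnfaip3 and Bbc3 also have counts over all their peaks. Alternatives were DESeq2 1.42.0, limma voom 3.58.1, other scalings, thresholds, a replicate block and leaving out each of the 12 libraries. Same-numbered pyruvate and lactate libraries deviated from their group means with correlations of 0.14, -0.01 and 0.04, so the replicate numbers were not taken to pair them. Peak sequences outside the promoter table were not used here.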

Additional observations from a re-analysis of the deposited data

How the results depend on the processing

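DESeq2 gave 8567 called peaks (5713 higher, 2854 lower), limma voom 8433, and DESeq2-type size factors in edgeR 8521. The 127 named peaks kept their direction under each setting that tested them (where a mean log2 CPM of at least 2 was required, 117 kept their call or lack of one, 1 lost it, 1 gained it and the others were not tested); 18 lost their call at an adjusted p of 0.01, and up to 24 lost it when 1 library was left out (lactate replicate 3). With total counts the lower calls were 6084 over all peaks, 933 at gene ends, 5151 elsewhere and 2247 in the widest quartile. With loess offsets they were 1082 at gene ends and 2416 in the widest quartile. Separate factors for gene-end peaks gave 1974 higher and 1363 lower at gene ends and 1798 lower elsewhere, and gene-density offsets gave 2334 lower over all, 1982 lower away from gene ends and 666 lower in the widest quartile. GC offsets for start peaks tested alone, which themselves centre the start peaks, gave 1808 higher and 1371 lower. The cause of these shifts was not tested.

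The same replicate numbers occur in every group, and the fit with a replicate block called 10845 peaks (6304 higher, 4541 lower). A replicate block on only the 6 libraries called 13935 peaks, with 6264 lower, 871 of them at gene ends, 3040 higher and 5393 lower elsewhere, 2056 lower in the widest quartile and 568 in the gene lists. The block with loess offsets gave 1249 lower at gene ends and 2774 lower in the widest quartile. The pairing check covered only same-numbered pyruvate and lactate libraries and found no shared deviation in every pair. A replicate effect shared with the other groups was not checked. A call lost or won under the block is not read as a weaker or stronger effect. Only the 6 libraries without the block gave 691 lower at gene ends.

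At an adjusted p of 0.01 there were 3860 calls, 2756 higher and 1104 lower: 1892 and 130 at gene ends, 864 and 974 elsewhere, 1724 and 361 in the widest quartile, and 161 in the gene lists. At 0.10, lower calls were 5927, 761 at gene ends and 5166 elsewhere. With a log2 difference of at least 0.5 as well, 2658 remained (1418 higher, 1240 lower): 645 and 117 at gene ends, 773 and 1123 elsewhere, 435 and 96 in the widest quartile, 91 in the gene lists. A gene end of 2.5 kb gave 825 lower, and one of 10 kb 1772 lower with 795 higher and 1848 lower elsewhere. The narrower margin tried held 12001 peaks and one of 2-fold 71459.

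Leaving out each library in turn gave 3597 to 11151 calls (the highest without NaCl replicate 3), 2291 to 6456 higher and 1306 to 4695 lower. At gene ends the ranges were 1504 to 4038 higher and 142 to 602 lower, elsewhere 787 to 2418 and 1164 to 4093, and in the widest quartile 1321 to 3907 and 422 to 1574. The gene lists had 160 to 456 calls, and 39742 to 47896 peaks lay within 1.5-fold. Of genes with a higher peak, 250 to 288 transcripts were higher and 317 to 370 lower; of genes with a lower peak, 19 to 24 and 17 to 22. The standard error in log2 had a median of 0.15, and 5% of peaks had one above 0.31.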

Other observations

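Some genes had several called peaks, all in 1 direction, beside others that were not called. These genes were chosen after their values were seen. Septin9, a cytoskeletal GTPase gene, had 9 of 28 peaks higher with pyruvate and 0 lower (4 with total counts, 6 with gene-density offsets), and Fnbp1, a membrane-curving adaptor of endocytosis, 7 of 18 (6 with each). In the other direction Wwox, a large gene at a common fragile site, had 11 of 39 peaks lower and 0 higher (15 with total counts, 4 with density offsets), and Ppm1h, a phosphatase gene, 9 of 35 (13 and 4). Ptprc, which encodes the pan-leukocyte phosphatase CD45, had 7 of 30 peaks lower (8 and 4), and Tet2, the 5-methylcytosine oxidase, 5 of 18 (5 and 3).

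The peak of highest level in the table lies at AY036118 on chromosome 17, at 39843038 to 39847263. It had 7781, 9098 and 7893 CPM in the pyruvate libraries against 6754, 5716 and 5339 CPM in the lactate libraries (log2 difference 0.48 ± 0.14, edgeR adjusted p = 0.0196), without overlap. A second peak of AY036118, at 39847471 to 39848779, differed by 0.49 (adjusted p = 0.00905). Whether reads from copies elsewhere were placed here was not tested, and the values are uncertain for this locus. A run of 14 peaks assigned to Vmn1r2 near the start of the assembled chromosome 4 had 8 higher and 0 lower. Of all peaks, 6.84% were higher and 4.78% lower. Whether reads from elsewhere were placed at these peaks was not tested either.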
